A study of Mus musculus with 4 samples.

Results

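The microRNAs (miRNAs) mmu-miR-99a-5p, mmu-miR-100-5p and mmu-miR-125b-5p are the mature products that accompany let-7 miRNAs in the host genes of miR-99a and miR-100 in the mouse genome. They were chosen by name, as the miRNAs of these host loci that do not belong to let-7, and are 3 of the 1059 mature miRNAs counted in the libraries. Small RNA from the rostral end of the telencephalic primordium of E11.5 mouse embryos (embryonic day of collection) was read out from 4 libraries, of which 2 came from Rx-Dicer mutants and 2 from controls. The mutants carried Cre under Rx (Rax) regulatory sequences, labelled Rx3-Cre, together with homozygous floxed Dicer alleles (RxCre-DicerF/F), so that Dicer deletion was limited to cells with a history of that Cre and their descendants. The controls carried the same floxed alleles without Cre (DicerF/F), although library titles call them wild type. The Cre line was kept on CD1 and the floxed line on C57BL/6, and the number of embryos per library was not given, so p-values measure the spread between these samples, which may be partly technical.

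Dicer cuts miRNA hairpins into mature miRNAs, which repress mRNAs mainly by pairing of their seed, the bases near the 5′ end, with sites in the target. miR-99a and miR-100 belong to an ancient family known for targeting mTOR pathway genes, and miR-125b is a vertebrate homologue of lin-4, which acts together with let-7 in developmental timing. In vertebrates these miRNAs are encoded in clusters that hold 1 gene each of the let-7, miR-99/100 and miR-125 families, and miR-125b is made from a pair of such clusters.

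The mature sequences explain why the 3 miRNAs have to be read side by side. They are shown 5′ to 3′ from RefSeq (GRCm38.p6), with the seed (bases 2 to 8) in capitals, next to the relatives that share a seed and the let-7 miRNAs of the same host genes.
miR-99a-5p: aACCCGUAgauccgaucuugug
miR-100-5p: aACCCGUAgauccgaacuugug
miR-99b-5p: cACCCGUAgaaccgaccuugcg
miR-125b-5p: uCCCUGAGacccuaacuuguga
miR-125a-5p: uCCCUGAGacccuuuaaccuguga
miR-351-5p: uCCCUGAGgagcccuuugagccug
let-7c-5p: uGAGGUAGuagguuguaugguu
let-7a-5p: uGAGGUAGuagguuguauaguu

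miR-99a-5p and miR-100-5p had the same seed, the same length of 22 bases and the same base at 21 of 22 positions. Their single difference was U16A, with the base of miR-99a-5p first and positions counted from 1 at the 5′ end. miR-99b-5p differed from miR-99a-5p at 4 positions (A1C, U11A, U16C and U21C), all outside the seed. miR-125b-5p and miR-125a-5p shared their first 13 bases, and miR-351-5p shared the first 8 bases of miR-125b-5p. How many mismatches the authors allowed when they counted reads was not given in the sources used here, so the share of reads that could have been placed on either miR-99a-5p or miR-100-5p was not measured, and both are given below alone and as their sum.

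In mm10 (GRCm38, GENCODE annotation), Mir99a lies at chr16:77598936-77599000 on the plus strand, 656 bases before Mirlet7c-1 (chr16:77599657-77599750). Mir125b-2 follows at chr16:77646273-77646343, 46522 bases after Mirlet7c-1. All 3 hairpins lie in introns of the noncoding host gene Mir99ahg. Mir99a and Mirlet7c-1 also lie in an intron of Gm11146 on the other strand, and Mir125b-2 overlaps the start of the exon of C130023A14Rik. On chromosome 9, Mir100 lies at chr9:41531425-41531504 on the plus strand, 5211 bases before Mirlet7a-2 (chr9:41536716-41536811). Mir125b-1 (chr9:41581926-41582002) lies 45114 bases further on. These 3 hairpins lie in introns of the noncoding gene 3110039I08Rik, which RefSeq also names Mir100hg. Mir100 overlaps an exon of Gm48742 on the other strand, and Mir125b-1 lies in the exon of the sense-intronic Gm28119. The 2 hairpins of miR-125b give 1 mature sequence, so a count of miR-125b-5p holds the output of both loci.

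The libraries held 651031 and 516517 miRNA counts in Rx-Dicer mutants and 1299067 and 1133553 in controls, so both mutant libraries were shallower. Each count is a read assigned by the authors to a mature miRNA. miR-9-5p, a miRNA of neural progenitors, took 28.2 to 42.6% of the counts of a library. The other neural miRNAs examined (miR-124-5p, miR-128-1-5p, miR-128-2-5p and miR-92b-5p) had counts in every library, with as few as 1 for miR-128-2-5p. For comparisons of levels, counts were scaled with TMM, which sets the libraries to a common level of most miRNAs, and are given as CPM, counts relative to a common library size. edgeR's quasi-likelihood test was applied to 274 miRNAs, those that reached 10 counts in 2 or more libraries, and all 3 miRNAs were among them.

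The 3 miRNAs were among the most abundant of the tissue. Together they took 8.35% and 6.44% of all counts in the Rx-Dicer libraries and 7.18% and 8.47% in the controls. The ranges of these unscaled shares overlapped (7.40 ± 1.35% against 7.82 ± 0.908%, SD, n = 2 each), which does not show an overlap of TMM-scaled levels. By mean TMM-scaled CPM over the 4 libraries miR-125b-5p ranked 6th, miR-100-5p 7th and miR-99a-5p 9th of the 274 tested miRNAs. miR-30d-5p ranked just above miR-125b-5p, miR-20a-5p stood between miR-100-5p and miR-99a-5p, and miR-181b-5p ranked just below miR-99a-5p. The values of each of these neighbours overlapped those of the next across the 4 libraries, so the order of the means is within their spread. The order of the 3 miRNAs differed between the 2 libraries of each genotype. Only the least abundant of them was the same within a genotype. miR-100-5p was the least abundant of them in both controls, whereas miR-99a-5p was the least abundant in both mutants.

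miR-99a-5p was 1.98-fold lower in the mutants, miR-125b-5p was lower by a smaller amount, and miR-100-5p did not separate the genotypes. None of the 3 passed an adjusted p of 0.05 in edgeR. In the same test 7 of 274 miRNAs (2.55%) were called lower in Rx-Dicer mutants. None was called higher (0%), with 3 higher at an unadjusted p under 0.05 in edgeR, and DESeq2's Wald test called 0 higher, with 5 at its unadjusted p.

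**Figure D1:**
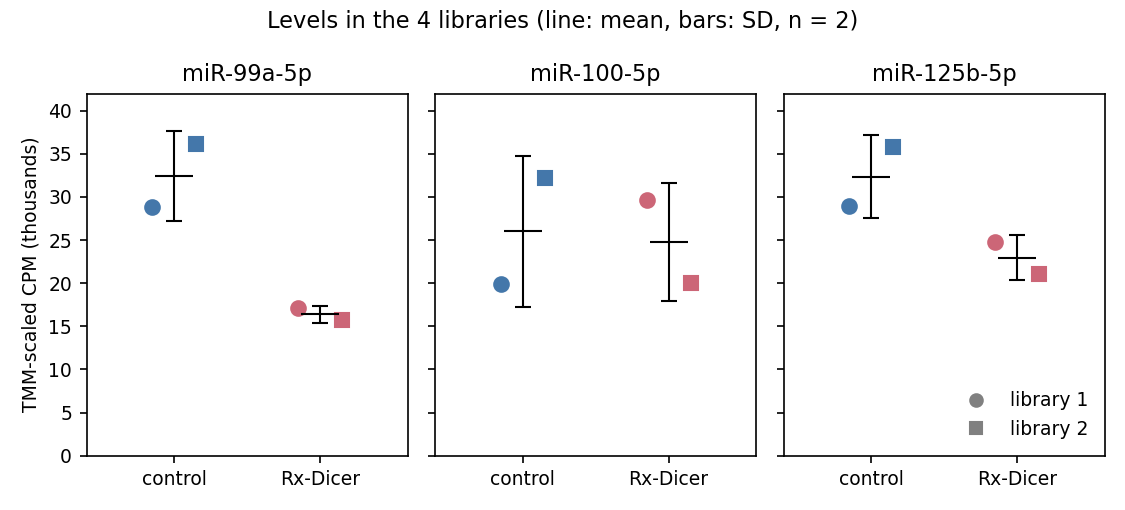
TMM-scaled CPM (divided by 1000, vertical axis from 0) of miR-99a-5p, miR-100-5p and miR-125b-5p in the 2 control (blue) and 2 Rx-Dicer (red) libraries, with library 1 as circles, library 2 as squares, the mean as a line and the SD as bars. Both mutant libraries lie below both control libraries for miR-99a-5p and miR-125b-5p, and the genotypes overlap for miR-100-5p.

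miR-99a-5p had 12983 counts in Rx-Dicer library 1, 9191 in Rx-Dicer library 2, 34620 in control library 1 and 33339 in control library 2. Its scaled level was 17079 and 15684 CPM in the mutants and 28794 and 36173 CPM in the controls. The highest mutant value was thus well below the lowest control value, and the gap between genotypes was wider than the gap between replicates, which was 1.09-fold in mutants and 1.26-fold in controls. Mutants averaged 16381 ± 986 CPM, controls 32484 ± 5218 CPM (SD over 2 libraries each). The log2 fold change was −0.99 (standard error 0.25, 95% interval −1.57 to −0.40), with an adjusted p of 0.124 in edgeR's quasi-likelihood test. By p-value it ranked 11th of 274. It was 1 of 23 miRNAs (8.39%) lower in mutants at an unadjusted p under 0.05. DESeq2's Wald test gave a log2 fold change of −0.95 and an adjusted p of 0.00670, which placed miR-99a-5p among the 11 miRNAs (4.01%) that it called lower. Whether miR-99a-5p counts as changed therefore depended on the test, whereas its direction did not.

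Unscaled shares gave the same direction for miR-99a-5p. It took 1.99% (95% Wilson interval 1.96 to 2.03%) and 1.78% (1.74 to 1.82%) of counts in the mutants, against 2.66% (2.64 to 2.69%) and 2.94% (2.91 to 2.97%) in the controls. These intervals cover counting error only, and none of the mutant intervals reached a control interval. Its rank by counts was 10th and 14th in the mutants and 8th and 4th in the controls.

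The counts of miR-125b-5p were 18866 in Rx-Dicer library 1 and 12370 in Rx-Dicer library 2, against 34826 and 32975 in the controls (library 1 first). Scaled, this was 24818 and 21109 CPM in mutants and 28965 and 35779 CPM in controls, without overlap between genotypes. The same separation was found for 67 of the 274 tested miRNAs (24.5%), so on its own it says little about a single miRNA. The means were 22963 ± 2622 and 32372 ± 4818 CPM (SD, n = 2 each). Its log2 fold change of −0.50 (standard error 0.25, 95% interval −1.08 to 0.09) had an adjusted p of 0.526 in edgeR's quasi-likelihood test and 0.623 in DESeq2's Wald test. As a share of all counts miR-125b-5p took 2.90% and 2.39% in mutants and 2.68% and 2.91% in controls, so the unscaled shares overlapped.

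The 2 precursors of miR-125b-5p were counted in separate rows. The row with the lower total had 1.79 to 2.18% fewer counts than the other in all 4 libraries, and the files do not pair the rows with the loci on chromosomes 9 and 16. Tested separately, each row was at −0.53 on the log2 scale (standard error 0.31), with adjusted p = 0.523 in edgeR for both. The rows therefore hold nearly the same reads and do not tell the output of the loci apart.

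The counts of miR-100-5p were 22540 in Rx-Dicer library 1 and 11711 in Rx-Dicer library 2, against 23867 and 29661 in the controls (library 1 first). The scaled values were 29651 and 19984 CPM in mutants and 19850 and 32183 CPM in controls. One high and one low library occurred in each genotype, so the groups overlapped almost completely. Mutants averaged 24818 ± 6835 CPM, controls 26017 ± 8720 CPM (SD over 2 libraries each). The log2 fold change was −0.07 with a 95% interval of −0.83 to 0.70 (standard error 0.33, adjusted p = 0.984 in edgeR), an interval wide enough to hold a change as large as that of miR-125b-5p in either direction.

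The spread between replicates set miR-100-5p apart from miR-99a-5p and miR-125b-5p. Its replicates differed 1.48-fold in mutants and 1.62-fold in controls, where the medians over the 64 miRNAs with at least 1000 CPM were 1.15-fold and 1.30-fold. By size, its gap ranked 6th in mutants and 13th in controls among these 64. The gaps of miR-125b-5p, 1.18-fold in mutants and 1.24-fold in controls, were close to the medians. miR-100-5p was high in Rx-Dicer library 1 and control library 2 and low in Rx-Dicer library 2 and control library 1.

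When the counts of miR-99a-5p and miR-100-5p were replaced by their sum, so that a read placed on either gave the same value, their log2 fold change came to −0.50 with a standard error of 0.28 (adjusted p = 0.558 in edgeR). The sum did not pass the test. Of all counts it took 4.75 ± 0.997% in mutants, against 5.03 ± 0.746% in controls (SD over 2 libraries each).

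**Figure D2:**
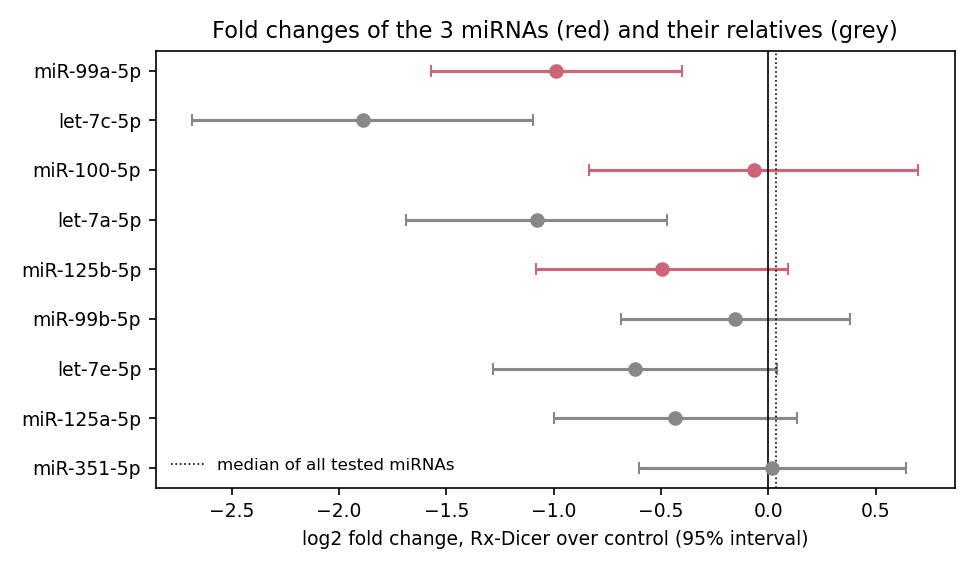
Log2 fold change of Rx-Dicer over control from edgeR with its 95% interval (horizontal axis) for miR-99a-5p, miR-100-5p and miR-125b-5p (red) and their cluster and seed relatives (grey), with the median of all 274 tested miRNAs as a dotted line at 0.04. The intervals of miR-99a-5p, let-7c-5p and let-7a-5p lie below 0, and those of the other 6 miRNAs include 0.

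The let-7 miRNAs of the same host genes had larger log2 differences than the miR-99/100 miRNA encoded beside them. let-7c-5p had 5608 and 4549 CPM in mutants and 24151 and 13480 CPM in controls, a log2 difference of −1.89 ± 0.34 (standard error; adjusted p = 0.0472 in edgeR). In DESeq2's Wald test both let-7c-5p (adjusted p = 1.22e-05) and miR-99a-5p, whose hairpin lies beside one of the let-7c hairpins, passed. The edgeR call of let-7c-5p was lost with total counts, with the replicate number as a factor, and without control library 1 or control library 2, settings in which edgeR called 0 miRNAs lower. let-7a-5p had 7573 and 7447 CPM in mutants and 18100 and 13621 CPM in controls, a log2 difference of −1.08 ± 0.26 (standard error) with an adjusted p of 0.105 in edgeR, which did not pass, and 0.00637 in DESeq2's Wald test, which did. let-7c-5p and let-7a-5p are also encoded elsewhere in the genome, so their counts are not the output of these host genes alone.

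The third cluster, on chromosome 17, encodes miR-99b, let-7e and miR-125a in Spaca6, and served as a comparison with the same 3 families. miR-99b-5p was the most abundant of these, with 47462 and 50865 CPM in mutants and 53014 and 56354 CPM in controls. Its log2 fold change was −0.15 (adjusted p = 0.856 in edgeR). let-7e-5p had a log2 fold change of −0.62 (adjusted p = 0.497) and miR-125a-5p one of −0.43 (adjusted p = 0.594). miR-351-5p, which shares only the miR-125 seed, was at 0.02 (adjusted p = 0.990). Of these 6 cluster and seed relatives, let-7c-5p passed an adjusted p of 0.05 in edgeR, and let-7c-5p and let-7a-5p passed it in DESeq2's Wald test.

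Ratios of 2 miRNAs within a library do not depend on how libraries are scaled. The ratio of miR-99a-5p to miR-100-5p was 0.576 and 0.785 in Rx-Dicer libraries 1 and 2 and 1.45 and 1.12 in control libraries 1 and 2. miR-100-5p thus exceeded miR-99a-5p in both mutants and was below it in both controls. The mean log2 ratio was −0.57 ± 0.32 in mutants, against 0.35 ± 0.26 in controls (SD over 2 libraries each), a difference of −0.93 or 1.90-fold. A two-sided exact permutation test gave p = 0.33, the smallest value that 2 libraries against 2 allow, and this held for each of the non-overlapping ratios among the 8 that were computed, so their adjusted values cannot be lower. Of all ordered pairs of tested miRNAs, 20.5% had a ratio with both mutants below both controls. Each pair was counted in both orders, so the share of pairs separated in either direction was 2 times as large. A ratio without overlap was thus common in these libraries.

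The ratio of miR-125b-5p to miR-99a-5p varied little within a genotype. It was 1.45 and 1.35 in mutants and 1.01 and 0.989 in controls. The mean log2 ratios were 0.48 ± 0.078 and −0.0036 ± 0.017 (SD, n = 2 each), a difference of 0.49 or 1.40-fold with exact permutation p = 0.33. miR-125b-5p and miR-99a-5p were therefore near parity in both controls, and miR-125b-5p was in excess in both mutants. Against miR-100-5p, the ratio of miR-125b-5p was 0.837 and 1.06 in mutants and 1.46 and 1.11 in controls, again without overlap.

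Within host genes, the ratio of miR-99a-5p to let-7c-5p was 3.05 and 3.45 in mutants and 1.19 and 2.68 in controls. The difference of mean log2 ratios was 0.86, and 0.27 when control library 1 was left out. The ratio of miR-100-5p to let-7a-5p was 3.92 and 2.68 in mutants and 1.1 and 2.36 in controls. This difference was 1.01, and 0.46 without control library 1. Both ratios were higher in mutants than in controls, and both differences between genotypes were smaller without control library 1. In that library let-7c-5p and let-7a-5p were higher than in control library 2, and miR-100-5p was lower.

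**Figure D3:**
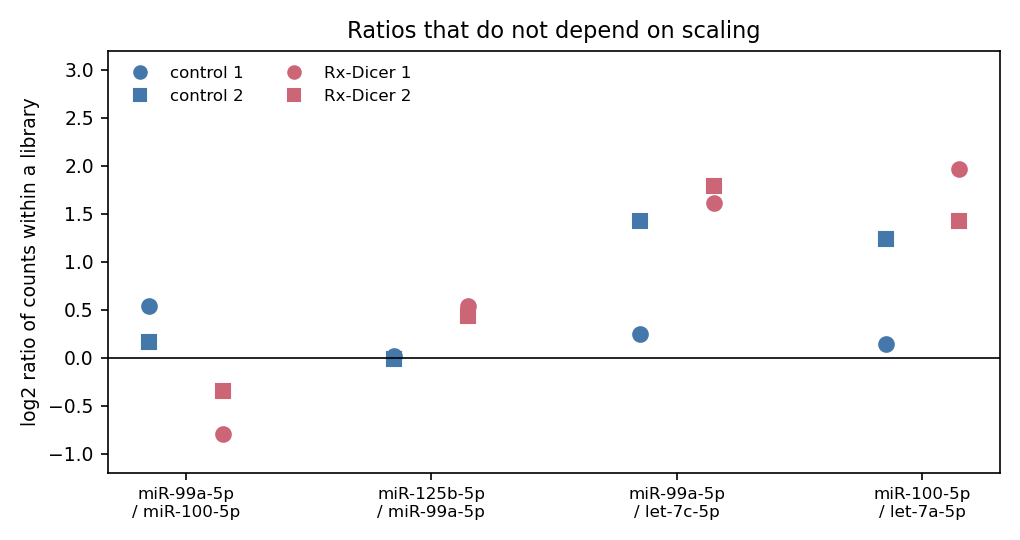
Log2 ratio of the counts of a pair of miRNAs within each library (vertical axis) for the 4 pairs named on the horizontal axis, in control (blue) and Rx-Dicer (red) libraries, with library 1 as circles and library 2 as squares. miR-99a-5p falls below miR-100-5p and miR-125b-5p in the mutants, the genotypes do not overlap for any of the 4 pairs, and control library 1 stands apart for the ratios to let-7.

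Set against every other tested miRNA, the 3 miRNAs differed widely. The ratio of miR-99a-5p to another miRNA had both mutants below both controls for 213 of 273 others (78.0%). For miR-125b-5p this was so for 144 (52.7%), and for miR-100-5p for 29 (10.6%). The median over all tested miRNAs was 9.89%. let-7c-5p reached 94.1% and let-7a-5p 83.2%, and the seed relative miR-99b-5p 30.0%. As these ratios share their numerator, they describe how a miRNA stood in these 4 libraries and are not separate tests.

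Because miRNAs with the same seed can bind the same sites, the counts were also added up by seed. miR-99a-5p, miR-100-5p and miR-99b-5p together took 11.0% and 9.82% of counts in mutants and 9.41% and 10.1% in controls, which overlapped (exact permutation p = 0.667). The total of the seed family did not separate the genotypes, and of its parts only that of miR-99a-5p did. That part draws on the same counts of miR-99a-5p as above and is no separate support. miR-99a-5p made up 18.1% of the family in each mutant library, against 28.3% and 29.0% in the controls, a difference of −10.5 percentage points (exact permutation p = 0.33, the smallest possible). miR-100-5p made up 31.5% and 23.1% in mutants and 19.5% and 25.8% in controls, and miR-99b-5p 50.4% and 58.8% against 52.1% and 45.2%, both with overlap.

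In the miR-125 seed family, miR-125b-5p, miR-125a-5p and miR-351-5p together took 5.14% and 4.32% of counts in mutants and 4.99% and 4.63% in controls. miR-125b-5p made up 56.4% and 55.4% of the family in mutants and 53.8% and 62.8% in controls. miR-125a-5p made up 34.1% and 35.6% in mutants and 38.5% and 31.3% in controls, and miR-351-5p 9.56% and 8.99% against 7.76% and 5.9%. As an unscaled share, the total overlapped between genotypes, and so did the parts of miR-125b-5p and miR-125a-5p. The part of miR-351-5p was higher in both mutants, by 2.45 percentage points (exact permutation p = 0.33, the smallest possible). Within a library the ratio of miR-125b-5p to miR-125a-5p, its relative on chromosome 17, also overlapped (1.65 and 1.56 in mutants, 1.40 and 2.01 in controls).

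**Figure D4:**
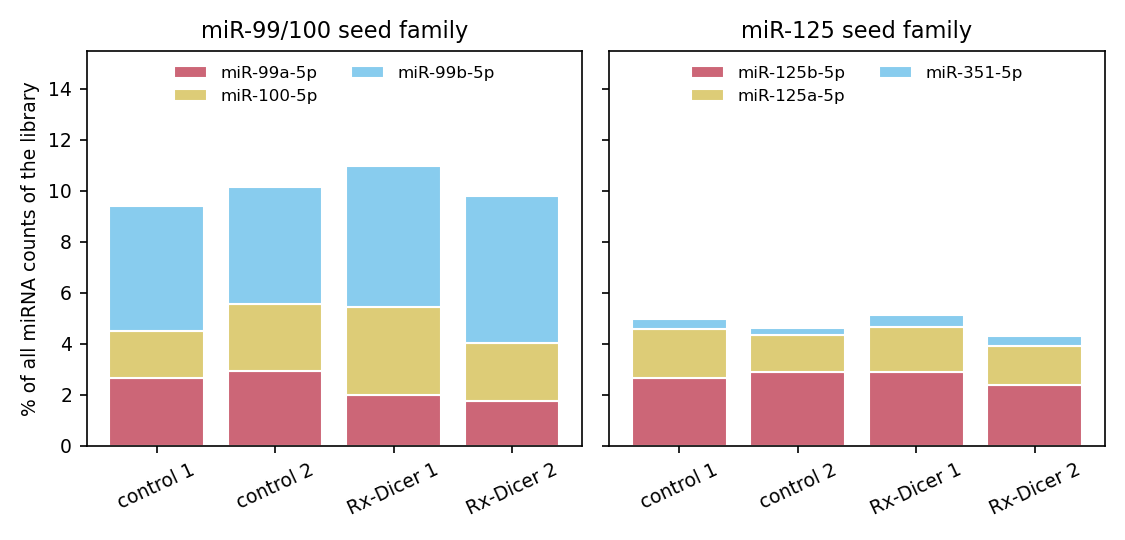
Share of all miRNA counts of a library (vertical axis, percent) taken by the miRNAs with the miR-99/100 seed (left) and the miR-125 seed (right), stacked by miRNA for each of the 4 libraries. The heights, which are unscaled shares, overlap between genotypes, and the part of miR-99a-5p at the bottom of the left bars is smaller in both Rx-Dicer libraries.

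Since Dicer makes most miRNAs, a fold change depends on the level to which libraries are set. The fold change of miR-99a-5p was −0.57 with scaling by total counts (adjusted p = 0.228 in edgeR). It was −1.39 when the sum of 3 red-cell miRNAs, most of it miR-486a-5p, was held equal (adjusted p = 0.0386 in edgeR). The latter assumes the same red-cell content in every library. Over the same settings miR-125b-5p moved from −0.08 to −0.89 and miR-100-5p from 0.36 to −0.45, so that the direction of miR-100-5p depended on the scaling. With TMM scaling it also turned positive without Rx-Dicer library 2 (0.20) or control library 2 (0.28). The median of all tested miRNAs moved by as much, from 0.44 with total counts to −0.37 with equal red-cell miRNAs. Relative to that median, miR-99a-5p lay between −1.03 and −1.01 under all 5 scalings, miR-125b-5p between −0.53 and −0.52, and miR-100-5p between −0.10 and −0.08. A scaling shifts all miRNAs by nearly the same amount, so these steady distances follow from the method and are no separate support.

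**Figure D5:**
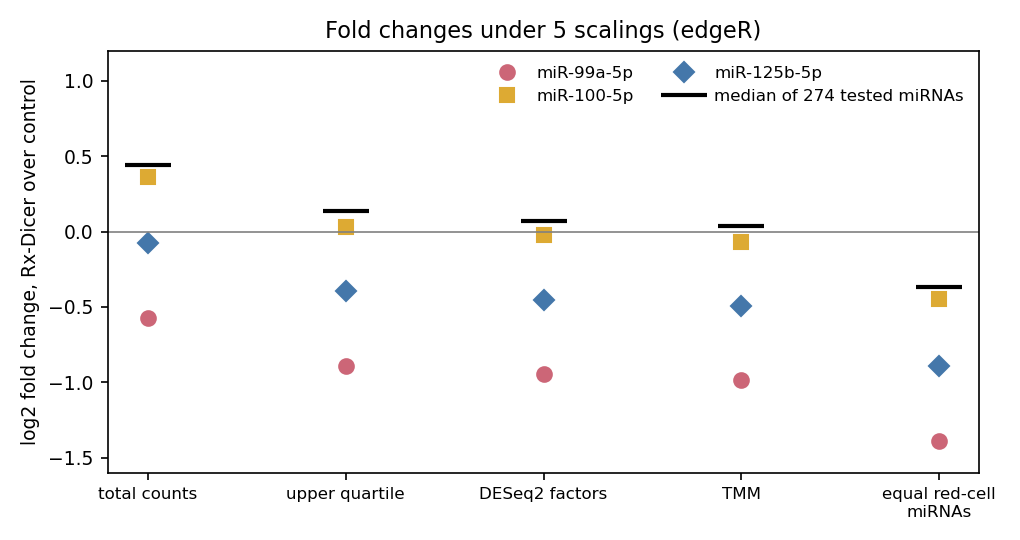
Log2 fold change of Rx-Dicer over control in edgeR (vertical axis) for miR-99a-5p, miR-100-5p and miR-125b-5p under 5 ways of scaling the libraries (horizontal axis), with the median of the 274 tested miRNAs as a black bar. All points move together with the median, which runs from 0.44 to −0.37, and the distances between them hardly change. This follows from the method, because a scaling shifts all miRNAs by nearly the same amount.

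The miRNAs whose centred log2 profiles over the 4 libraries were most like each of the 3 were found among the 156 with a mean of at least 100 CPM, by Euclidean distance. miR-99a-5p was closest to miR-204-5p (distance 0.23), miR-139-5p (0.34) and miR-9-5p (0.35). All of these had lower values in both mutants, with 88.1 and 81.9 CPM against 136 and 155 CPM for miR-204-5p, 552 and 445 against 1091 and 1036 for miR-139-5p, and 241150 and 259356 against 340117 and 524463 for miR-9-5p. miR-125b-5p came 10th in likeness to miR-99a-5p and let-7a-5p 14th, whereas miR-100-5p came 62nd and let-7c-5p 98th. Genomic neighbours were thus not the closest profiles of miR-99a-5p in these 4 libraries.

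miR-100-5p was closest to miR-126a-5p (distance 0.19), miR-434-5p (0.20) and miR-15b-5p (0.20). miR-126a-5p, a product of the endothelial gene Egfl7, had 431 and 244 CPM in Rx-Dicer libraries 1 and 2 and 254 and 404 CPM in control libraries 1 and 2. miR-434-5p, from the imprinted Dlk1-Dio3 region, had 4131 and 3097 CPM in mutants and 2577 and 4264 CPM in controls. The libraries that were high for miR-100-5p, Rx-Dicer 1 and control 2, were also high for these. miR-125b-5p was closest to miR-301a-5p (0.16), miR-325-5p (0.21) and miR-30c-5p (0.27), each lower in both mutants and without an adjusted p under 0.05.

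Markers of other cell types were read from lists of miRNAs, since a bulk library cannot tell fewer cells of a type from less miRNA per cell. The list of endothelium rested on miR-126a-5p alone, with a range of 244 to 431 CPM in mutants and 254 to 404 CPM in controls. The 5 miRNAs of mesenchyme and vessel wall, most of it miR-199a-5p, summed to 11926 and 11357 CPM in mutants and 4446 and 11080 CPM in controls. This sum was low in control library 1, where miR-100-5p was low, and not in Rx-Dicer library 2, the other library with low miR-100-5p. Singly, miR-199a-5p, miR-199b-5p and miR-214-5p stood out only by their low value in control library 1. The other members were low in both libraries with low miR-100-5p. The scarce miR-143-5p had 52.6 and 22.2 CPM in mutants and 17.5 and 32.6 CPM in controls. For miR-145a-5p the values were 387 and 261 CPM in mutants and 149 and 367 CPM in controls. The 5 neural miRNAs, almost all of it miR-9-5p, summed to 243653 and 262388 CPM in mutants and 344725 and 527164 CPM in controls, in the direction of miR-99a-5p and miR-125b-5p. Singly, miR-9-5p, miR-124-5p and the scarce miR-128-2-5p were lower in both mutants, and miR-92b-5p and miR-128-1-5p overlapped between genotypes. The 3 red-cell miRNAs summed to 7601 and 8510 CPM in mutants and 5741 and 6367 CPM in controls. Epithelial miRNAs reached 201 to 809 CPM, with 3 of 7 at 0 in every library, white blood cell miRNAs 471 to 574 CPM and caudal Hox-cluster miRNAs 525 to 705 CPM. The lists held mostly 5p arms of hairpins, so a low or 0 value does not show that a cell type was absent. For miR-143, the listed 5p arm had 17.5 to 52.6 CPM, whereas the 3p arm had 2165 to 4757 CPM. Of the 23 tested marker miRNAs none passed an adjusted p of 0.05 in edgeR or in DESeq2's Wald test, and 2, miR-9-5p and miR-124-5p, were lower in mutants at an unadjusted p under 0.05 in edgeR. The part of cell composition in the values of the 3 miRNAs was not tested.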

How the data were processed

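Small RNA of 2 Rx-Dicer and 2 control libraries was sequenced with 75-base single-end reads. The authors used miRDeep2 (mm10, miRBase 22) to assign reads to mature miRNAs and deposited raw counts per pair of mature miRNA and precursor. Version and mismatch settings of miRDeep2 were not given in the sources used here. One row per mature name (the highest total) was kept.

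edgeR 4.0.16 in R 4.3.3 (limma 3.58.1), with TMM scaling, genotype as the only factor and Benjamini-Hochberg adjustment over 274 miRNAs gave fold changes and p-values, with a threshold of 0.05. Ratios and shares were compared by two-sided exact permutation tests (Python 3.11.15, scipy 1.17.1). Alternatives were other scalings, DESeq2 1.42.0, other count minimums (none or 100), all or summed rows of a mature name, a factor for the replicate number and each library left out. Scripts were tested on simulated data.

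The miRNAs and lists were chosen with earlier results of these data known. Named were the 3 miRNAs, their cluster and seed relatives, the 3 closest profiles of each above 100 CPM and the neighbours in mean level. Shares of seed families were added after the values were seen. The 3p arms of the hairpins were not analysed here.

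Replicate libraries differed beyond sampling noise (chi-square per degree of freedom 57.6 in mutants and 255 in controls). Deviations of same-numbered libraries had a correlation of 0.085 across miRNAs, and the labels give no shared origin, so the numbers were not used as pairs.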

Additional observations from a re-analysis of the deposited data

How the results depend on the processing

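The direction of miR-99a-5p and miR-125b-5p was the same in all 14 alternatives each. miR-99a-5p passed the threshold in 4 of them, with −1.39 for equal red-cell miRNAs (adjusted p = 0.0386 in edgeR), −0.95 in DESeq2's Wald test (0.00670), −1.15 without a count minimum (0.00409) and −1.02 with all precursor rows (0.0277), and its adjusted p ranged from 0.00409 to 0.836. miR-125b-5p passed in none (adjusted p from 0.118 to 0.986). miR-100-5p turned positive with total counts (0.36) and upper-quartile scaling (0.033), and ranged from −0.38 to 0.28 with each library left out, positive without Rx-Dicer library 2 or control library 2. A fit without a library assumes that the lone library of a genotype varies like the others. Without each library in turn miR-99a-5p ranged from −1.11 to −0.86 and miR-125b-5p from −0.61 to −0.37.

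The number of miRNAs called lower, 7 in edgeR, was 4 with DESeq2's size factors, 0 with total counts, 3 with upper-quartile scaling, 11 with equal red-cell miRNAs, 11 in DESeq2's Wald test, 14 without a count minimum and 11 with all precursor rows. It ranged from 0 to 5 with each library left out, with 1 without Rx-Dicer library 1 and 0 without control library 1 or control library 2. With the replicate number as a factor (replicate block) it was 0, and miR-99a-5p was at −0.98 (adjusted p = 0.501). That a setting shifts all miRNAs shows in the median; the cause of other shifts was not tested. The sum of miR-99a-5p and miR-100-5p kept its direction throughout. The 4 planned ratios did so too, but this is no separate support. Their genotypes did not overlap, so leaving a library out could not reverse them. With 2 libraries per genotype, exact permutation tests cannot pass the threshold.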
